A study of Mus musculus with 10 samples.

Results

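The genes described here are the FGF receptors Fgfr1 to Fgfr4 and 6 genes that act downstream of them: the ETS transcription factors Etv4 and Etv5, the Sprouty inhibitors Spry1, Spry2 and Spry4, and the phosphatase Dusp6. They were found by symbol among probe sets annotated to exactly 1 gene, with the probe set of highest mean taken for each gene, and all 10 of 10 were measured, of 17919 genes in all. Levels were log2 values from 1 Affymetrix array per whole mouse lung at E18.5, late in gestation, on a mixed C57BL/6, 129X1 and 129S6 background. In 5 lungs, floxed Hdac3 had been deleted by Shh-Cre, whose promoter drives recombination in lung epithelial cells (genotype label Shhcre:Hdac3fl/fl, called Hdac3 KO here), and 5 lungs were Shhcre controls. Embryos came from Hdac3 fl/fl mothers and Hdac3 fl/+ ShhCre fathers. The control label gives no Hdac3 allele; a Cre-positive control of this cross would carry a floxed and a wild-type allele and so could have lost 1 copy in its epithelium. Mesenchyme, vessels and blood were not recombined and contributed to each value. In whole lung, fewer cells of a type and less RNA per cell cannot be told apart.

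FGF receptors are tyrosine kinases that bind FGFs together with heparan sulphate and signal through RAS and ERK. In the developing mouse lung, FGF10 from the mesenchyme acts on the IIIb splice form of Fgfr2 in the distal epithelium, where the pathway drives outgrowth of the buds. Etv4 and Etv5 are transcribed in response to the signal, and Sprouty proteins and Dusp6 are induced by it and limit it, so that these genes are often read as its output.

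Hdac3 had levels of 10.57, 10.54, 10.61, 10.34 and 10.43 in KO lungs 1 to 5, against 10.80, 10.90, 10.80, 10.67 and 10.90 in control lungs 1 to 5. All KO lungs were below all controls, and the log2 change was -0.31 ± 0.07 (SE, limma adjusted p = 0.0203), which leaves 80.4% of the control level. Without control 2 or control 5 the call ended (adjusted p = 0.0526 and 0.0545), at a log2 change of -0.29 each. Sftpc, a surfactant gene that marks lung epithelium, ranged from 13.39 to 13.49 in KO lungs and from 13.42 to 13.47 in controls, and Nkx2-1, the lung lineage factor, from 10.92 to 11.13 and from 10.94 to 11.13, which bears out the tissue label. On each of the first 2 principal components of all genes (26.6% and 22.1% of the variance), lungs numbered 4 and 5 were below lungs 1 to 3 within each group; no label names a batch. The number of lungs limits the precision, and over all genes the standard error of the change had a median of 0.0662 log2 units.

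Of the 10 genes, Etv5 was higher and Fgfr2 was lower in the Hdac3 KO lungs, and 8 were not called. A call is an adjusted p under 0.05 in limma's test over all genes, with Benjamini-Hochberg adjustment; it took in 3.12% of all 17919 genes, 1.54% higher and 1.58% lower. The median log2 change of the 10 genes was -0.06, beside 0.00 over all genes. Both called genes, and none of the other 8, had KO and control lungs that did not overlap, which held for 5.11% of all genes. At an unadjusted p under 0.05, 3 of the 10 passed (Fgfr4 was the other), beside 13.5% of all genes. With the replicate number as a block, again 1 of the 10 was called higher and 1 lower, where 4.72% of all genes were called. The plot of levels by lung shows all 10 genes on axes of equal span.

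**Figure D1:**
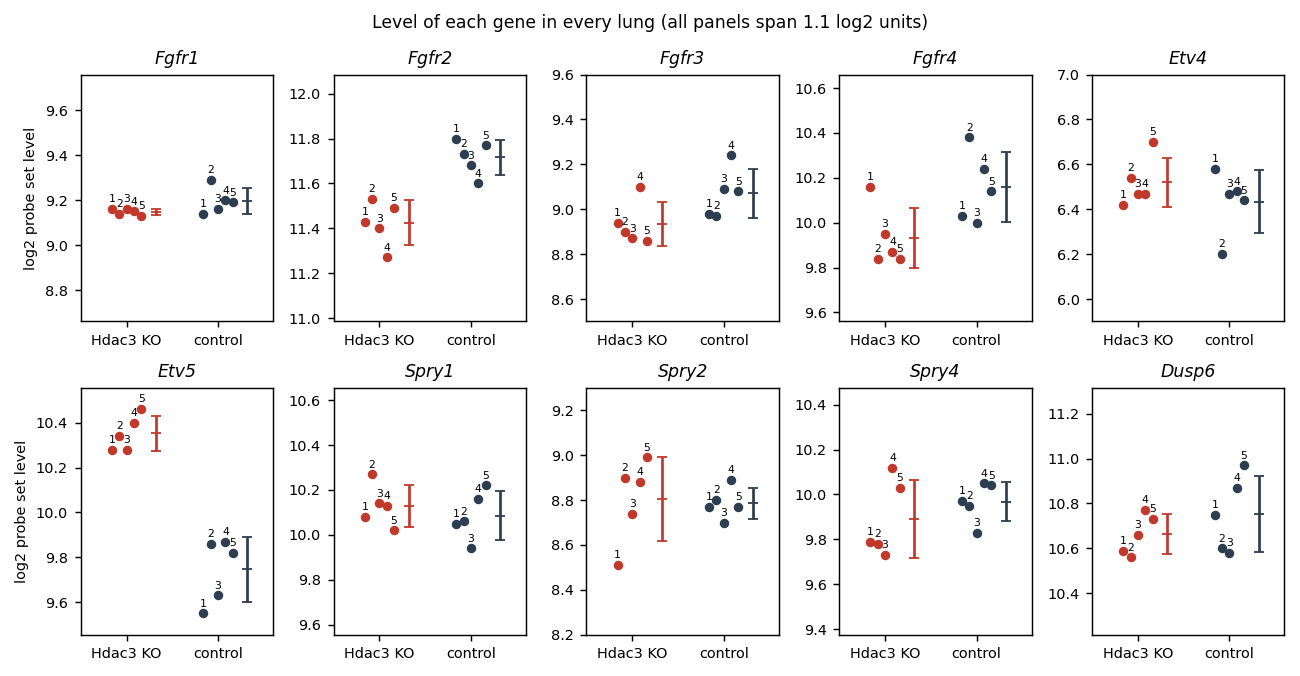
Log2 probe set level (y axis) of the 10 genes in the 5 Hdac3 KO lungs (red, left) and the 5 control lungs (dark, right), with the lung's number beside each point; the bar beside each group is mean ± SD. The KO points of Etv5 lie at 10.28 or above and its control points at 9.87 or below, the KO points of Fgfr2 lie at 11.53 or below and its control points at 11.60 or above, and the groups overlap in the other 8 panels.

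Among the receptors, Fgfr2, which carries the epithelial response to FGF7 and FGF10, had levels of 11.43, 11.53, 11.40, 11.27 and 11.49 in KO lungs 1 to 5, against 11.80, 11.73, 11.68, 11.60 and 11.77 in controls 1 to 5. Every KO lung was below every control. The mean was 11.42 ± 0.10 in KO and 11.72 ± 0.08 in control lungs (SD, n = 5 each), a log2 change of -0.29 ± 0.06 (SE, limma adjusted p = 0.0178) that leaves 81.6% of the control level. The difference was close to the same in lungs numbered 1 to 3, where the means were 11.45 in KO and 11.74 in controls, and in lungs 4 and 5, with 11.38 in KO and 11.68 in controls. Without control 1, the highest control, the log2 change was -0.27 and was not called (adjusted p = 0.0549). Among probe sets annotated to exactly 1 gene there is 1 for Fgfr2, so its IIIb form of epithelium and its IIIc form of mesenchyme were not read apart.

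Fgfr4 and Fgfr3, which in mice act together in late alveolar development, had lower means in the KO lungs but were not called. Fgfr4 was at 10.16, 9.84, 9.95, 9.87 and 9.84 in KO lungs 1 to 5, against 10.03, 10.38, 9.997, 10.24 and 10.14 in controls 1 to 5. KO lung 1 lay among the controls and the other 4 KO lungs below all of them; the log2 change was -0.23 ± 0.08 (SE, 95% interval -0.41 to -0.04, limma adjusted p = 0.233). Fgfr3 was at 8.94, 8.90, 8.87, 9.10 and 8.86 in KO lungs 1 to 5, against 8.98, 8.97, 9.09, 9.24 and 9.08 in controls. Here KO lung 4 overlapped the controls, and it had the same number as the highest control. Each KO lung was below the control of its own number, by 0.04 to 0.22, and the log2 change was -0.14 ± 0.06 (SE, 95% interval -0.28 to 0.00, limma adjusted p = 0.389).

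Fgfr1, the receptor through which FGF9 acts on lung mesenchyme together with the IIIc form of Fgfr2, had the narrowest spread. Its KO lungs lay between 9.13 and 9.16 and its controls between 9.14 and 9.29, with a log2 change of -0.05 ± 0.04 (SE, 95% interval -0.14 to 0.04, limma adjusted p = 0.712). The receptors were also compared within each lung, by the difference between the Fgfr2 level and that of another receptor. These differences between probe sets have no meaning as levels. Their change shows that the readings moved unequally, which need not hold for the RNA. The 2 probe sets of Etv5, described below, themselves changed by 0.61 and 0.17. Fgfr2 fell relative to Fgfr1 by 0.24 ± 0.07 (SE) on the log2 scale, with no overlap between KO and control lungs (two-sided exact permutation p = 0.00794, the smallest that 252 assignments allow). Relative to Fgfr3 and Fgfr4, its change was -0.16 ± 0.12 and -0.07 ± 0.12, and the groups overlapped (exact permutation p = 0.23 and 0.587). After Benjamini-Hochberg adjustment over the 8 within-lung differences run here, which were chosen with the results known, these p-values were 0.0106, 0.263 and 0.587. These tests take the lungs as unpaired. The p-values of Fgfr2 against Fgfr1 were nearly settled by the choice of these genes and add no support. Sign flips within the 5 same-numbered pairs, run after seeing the data, cannot give a p under 0.0625, which is the value for Fgfr2 against Fgfr1 and against Fgfr3 (lower in 5 of 5 pairs each), and give 0.75 against Fgfr4. Against Fgfr1 the value was fixed beforehand, as KO and control lungs did not overlap and any pairing would have given it.

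The ETS factor Etv5, which in mice maintains the identity of AT2 cells, the surfactant-making cells of the alveolus, had the largest change of the 10 genes. Its levels were 10.28, 10.34, 10.28, 10.40 and 10.46 in KO lungs 1 to 5, against 9.55, 9.86, 9.63, 9.87 and 9.82 in controls 1 to 5. The lowest KO lung was 0.41 above the highest control. The mean was 10.35 ± 0.08 in KO and 9.75 ± 0.15 in control lungs (SD, n = 5 each), a log2 change of 0.61 ± 0.07 (SE), which is 1.52-fold (limma adjusted p = 0.000434). Between lungs of the same number the rise ran from 0.48 to 0.73. It was 0.62 in lungs 1 to 3 and 0.59 in lungs 4 and 5.

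Among probe sets annotated to exactly 1 gene, Etv5 alone of the 10 genes has a second. That probe set read 6.80, 6.81, 6.91, 6.87 and 6.78 in KO lungs 1 to 5, against 6.58, 6.69, 6.71, 6.59 and 6.77 in controls. All KO lungs were above all controls here too, but the log2 change was 0.17 (two-sided exact permutation p = 0.00794), and in a limma fit of every probe set it was not called (adjusted p = 0.121). Its level was not far above 6.11, the 20th percentile of all values on the arrays. The direction therefore held for both probe sets, and the size of the Etv5 change rests on the brighter.

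Etv4, the close relative of Etv5 that is induced with it in the distal tips of the early mouse lung, stayed at a low level. It was at 6.42, 6.54, 6.47, 6.47 and 6.70 in KO lungs 1 to 5, against 6.58, 6.20, 6.47, 6.48 and 6.44 in controls. The groups overlapped, and the log2 change was 0.08 ± 0.07 (SE, 95% interval -0.08 to 0.25, limma adjusted p = 0.714). Within lungs, Etv5 rose relative to Etv4 by 0.52 ± 0.12 (SE), with no overlap between the groups (exact permutation p = 0.00794, adjusted p = 0.0106 over the 8 differences). Etv5 was set against Etv4 once both changes were known, so these p-values were nearly settled by that choice and add no support. The Etv4 means, 6.52 in KO and 6.43 in control lungs, were near the 6.11 given above and below those of the dimmer Etv5 probe set. That probe set read 0.17 where the brighter read 0.61. The difference therefore does not show that Etv4 RNA changed less than Etv5 RNA.

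The starts of the called genes are shown, with that of Dusp6, a feedback gene that was not called, because ETS factors such as Etv4 and Etv5 bind DNA around a GGAA core. RefSeq windows from 250 bases before to 50 bases after a transcription start (GRCm38.p6) were at hand for 7 of the 10 genes, 9 windows in all. Capitals mark CCGGAA or AGGAAG read on either strand, the reverse complements being TTCCGG and CTTCCT; the 2 motifs cannot share a GGAA. Etv5 has 2 annotated starts.
Etv5, upstream start (chr16:22439521-22439820, minus strand): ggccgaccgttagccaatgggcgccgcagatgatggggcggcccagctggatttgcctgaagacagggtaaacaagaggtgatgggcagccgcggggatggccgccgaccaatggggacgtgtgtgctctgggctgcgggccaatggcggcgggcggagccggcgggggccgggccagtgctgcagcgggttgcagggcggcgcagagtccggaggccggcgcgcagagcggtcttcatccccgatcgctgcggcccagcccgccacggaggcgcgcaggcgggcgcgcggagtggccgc
Etv5, downstream start (chr16:22438319-22438618, minus strand): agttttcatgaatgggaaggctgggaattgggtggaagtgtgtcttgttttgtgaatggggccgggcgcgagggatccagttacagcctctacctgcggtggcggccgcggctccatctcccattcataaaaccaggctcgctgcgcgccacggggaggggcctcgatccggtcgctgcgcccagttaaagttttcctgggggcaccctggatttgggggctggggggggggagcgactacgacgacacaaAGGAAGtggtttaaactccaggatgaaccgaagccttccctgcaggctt
Fgfr2 (chr7:130266759-130267058, minus strand): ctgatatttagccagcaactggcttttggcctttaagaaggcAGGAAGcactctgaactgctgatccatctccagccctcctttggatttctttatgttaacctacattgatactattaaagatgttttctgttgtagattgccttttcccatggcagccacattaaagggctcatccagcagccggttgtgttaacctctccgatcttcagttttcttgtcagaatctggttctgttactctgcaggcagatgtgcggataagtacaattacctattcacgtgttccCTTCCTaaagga
Dusp6 (chr10:99262981-99263280, plus strand): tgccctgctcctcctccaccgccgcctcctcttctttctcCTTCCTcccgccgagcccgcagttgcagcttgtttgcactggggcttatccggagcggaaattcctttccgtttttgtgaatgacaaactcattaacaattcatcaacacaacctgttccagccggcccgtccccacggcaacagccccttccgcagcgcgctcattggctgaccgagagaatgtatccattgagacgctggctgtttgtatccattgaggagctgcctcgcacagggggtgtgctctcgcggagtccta
The window of the upstream Etv5 start holds no match, that of the downstream start holds 1 AGGAAG, that of Fgfr2 holds 2 and that of Dusp6 holds 1. Over the 9 windows, 5 hold a match to either motif, beside 45.2% of all 32841 windows of this length in the table (14.9% for CCGGAA and 35.4% for AGGAAG). A match describes the letters and is not evidence of binding.

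Of the 4 feedback genes, limma called 0, also at an unadjusted p under 0.05, and KO and control lungs overlapped for each. Spry2, the Sprouty best known for restraining branching of the lung epithelium, was at 8.51, 8.90, 8.74, 8.88 and 8.99 in KO lungs 1 to 5, against 8.77, 8.80, 8.70, 8.89 and 8.77 in controls. The KO lungs spread further than the controls and lay on both sides of them, and the log2 change was 0.02 ± 0.08 (SE, 95% interval -0.16 to 0.20, limma adjusted p = 0.964). Spry1, a Sprouty that also limits receptor tyrosine kinase signalling, was at 10.08, 10.27, 10.14, 10.13 and 10.02 in KO lungs, against 10.05, 10.06, 9.94, 10.16 and 10.22 in controls. The change was 0.04 ± 0.06 (SE, 95% interval -0.10 to 0.18, limma adjusted p = 0.867), with KO lungs 2 and 3 above and KO lung 5 below the controls of their numbers by about the same amount (0.22, 0.20 and -0.20).

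Spry4 was at 9.79, 9.78, 9.73, 10.12 and 10.03 in KO lungs 1 to 5, against 9.97, 9.95, 9.83, 10.05 and 10.04 in controls. KO lungs 1 to 3 were below every control, KO lung 4 was above every control and KO lung 5 within their range, and the log2 change was -0.08 ± 0.08 (SE, 95% interval -0.25 to 0.09, limma adjusted p = 0.758). Spry4 lies on chromosome 18, as Hdac3 does, with 9 protein-coding genes between them in the GRCm38.p6 gene order; 8 of these were measured and 0 were called by limma (0 also at an unadjusted p under 0.05). Dusp6, which removes the activating phosphates from ERK, was at 10.59, 10.56, 10.66, 10.77 and 10.73 in KO lungs 1 to 5, against 10.75, 10.60, 10.58, 10.87 and 10.97 in controls. KO lungs were lower than the control of the same number in 4 of 5 cases, by little, and the log2 change was -0.09 ± 0.08 (SE, 95% interval -0.26 to 0.08, limma adjusted p = 0.698).

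**Figure D2:**
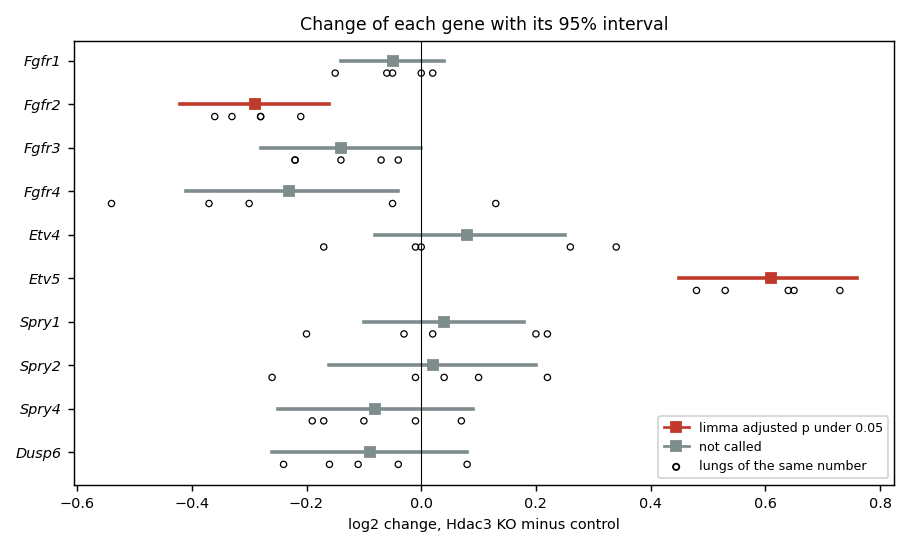
Log2 change, Hdac3 KO minus control (x axis), of each of the 10 genes (y axis): squares with lines are limma's estimate and 95% interval, in red where called, and open circles are the differences between lungs of the same number. Etv5 at 0.61 and Fgfr2 at -0.29 are the only red lines, and every circle of these 2 genes lies on the side of its square.

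The readings of Etv5 and of the feedback genes did not change alike. Within lungs, Etv5 rose relative to Spry1 by 0.57 ± 0.08 (SE) on the log2 scale, relative to Spry2 by 0.59 ± 0.08, relative to Spry4 by 0.69 ± 0.07 and relative to Dusp6 by 0.70 ± 0.08. In each of these 4 differences no KO lung overlapped a control (two-sided exact permutation p = 0.00794, adjusted p = 0.0106 over the 8 differences). Etv5 was set against these genes once its change and theirs were known. The p-values were thus nearly settled by that choice and add no support. Sign flips within same-numbered pairs gave the smallest p they allow, 0.0625, for each of these 4 and for Etv4, with Etv5 relatively higher in 5 of 5 pairs. As KO and control lungs did not overlap in these differences, any pairing would have given this result, and it adds no support. For Dusp6, the Etv5 level minus the Dusp6 level ran from -0.38 to -0.23 in KO lungs and from -1.20 to -0.74 in controls.

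Dusp6 and Spry4 had a further order among the lungs, by number. Dusp6 was 10.77 and 10.73 in KO lungs 4 and 5 and at most 10.66 in KO lungs 1 to 3, and 10.87 and 10.97 in controls 4 and 5 and at most 10.75 in controls 1 to 3. Spry4 showed the same order, with 10.12 and 10.03 in KO lungs 4 and 5 and at most 9.79 in KO lungs 1 to 3, and with 10.05 and 10.04 in controls 4 and 5 and at most 9.97 in controls 1 to 3. These were the only 2 of the 10 genes with lungs 4 and 5 above lungs 1 to 3 in both groups, an order found in 6.28% of all genes. The sets were defined from these data, so no test was made; what the numbers share is not given in the labels.

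The genes around the receptors, in 8 lists, are described by their counts. Over 140 such genes measured outside the 10, limma called 4 higher and 5 lower. Without control 3 the count higher was 2, and without control 1 or without KO lung 1 the count lower was 3. Beside these counts, 1.54% of all 17919 genes were called higher and 1.58% lower. By list the share called in either direction ran from 0% to 17.6%, beside 3.12% of all genes. Of 21 FGF ligand and related FGF genes, 0 were called (2 at an unadjusted p under 0.05), with a median log2 change of 0.00. Those nearest to a call were Fgf18, a mesenchymal FGF of the late lung, at 8.09 ± 0.26 in KO and 8.53 ± 0.23 in control lungs (SD, n = 5 each), with a change of -0.44 ± 0.13 (SE, limma adjusted p = 0.118, and 0.0222 with the replicate number as a block), and Fgf1. Fgf1 was at 8.96 ± 0.07 in KO and 9.28 ± 0.25 in control lungs, a change of -0.32 ± 0.10 (SE, limma adjusted p = 0.138, and 0.0388 with the block). Fgf1 lies on the chromosome of Hdac3, with 12 protein-coding genes between them.

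The ligands of the Fgfr2 IIIb form, named here after their values were seen, showed no call. Fgf10 averaged 8.54 ± 0.17 in KO and 8.51 ± 0.16 in control lungs (SD, n = 5 each), with a log2 change of 0.04 ± 0.09 (SE, limma adjusted p = 0.932). Fgf7 averaged 8.48 ± 0.19 and 8.52 ± 0.23, with a change of -0.04 ± 0.12 (SE, limma adjusted p = 0.934).

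Of 18 co-receptors, carriers and adaptors, 1 was called lower and 0 higher, with a median change of -0.02. It was Fgfbp1, a secreted carrier that releases FGFs from the matrix, which was at 7.36, 7.48, 7.44, 7.34 and 7.34 in KO lungs 1 to 5, against 7.63, 7.67, 7.71, 7.65 and 7.71 in controls. Its groups did not overlap, and it fell by 0.28 ± 0.05 (SE) on the log2 scale (limma adjusted p = 0.00409). Of 20 genes of heparan sulphate chains and their core proteins, 2 rose and 1 fell, with a median of 0.01. Hspg2, which encodes the basement membrane proteoglycan perlecan, rose by 0.34 ± 0.05 (SE, limma adjusted p = 0.00269), and Sdc1, the epithelial syndecan, by 0.34 ± 0.07 (SE, limma adjusted p = 0.0211). Hs6st2, a sulphotransferase, was called lower (change -0.25, limma adjusted p = 0.0169), but both its means, 5.81 in KO and 6.06 in control lungs, were below 6.11, the 20th percentile given above.

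The signal's cascade and its other inhibitors gave no call. Of 11 measured genes of RAS, RAF, MEK and their regulators (19 listed), 0 were called, 1 was at an unadjusted p under 0.05, and the median was -0.06. Rasa3, a RAS inactivator, had a change of -0.13 (limma adjusted p = 0.367) and Araf, a RAF kinase, -0.10 (0.472). Of 15 further feedback genes, such as the Spred genes and other dual-specificity phosphatases, 0 were called, 1 was at an unadjusted p under 0.05, and the median was 0.08. Dusp10 had a change of 0.20 (limma adjusted p = 0.325) and Dusp4 0.15 (0.565). Of 17 regulators and cyclins of the distal lung 0 were called and 4 were at an unadjusted p under 0.05. This list is not of the epithelium alone, as Gli1 and Hhip were also on the fibroblast and smooth muscle marker lists used below. Hhip, a Hedgehog inhibitor, had a change of -0.21 (limma adjusted p = 0.0843) and the cyclin Ccnd2 -0.24 (0.109, and 0.0249 with the replicate block).

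Among 21 other ETS factors, 1 rose and 1 fell, with a median of 0.04. Etv3, known as a transcriptional repressor, was at 9.73, 9.89, 9.72, 9.47 and 9.30 in KO lungs 1 to 5, against 8.83, 8.94, 9.0, 8.90 and 8.84 in controls. No KO lung overlapped a control, and Etv3 rose by 0.72 ± 0.10 (SE) on the log2 scale (limma adjusted p = 0.00132). Ehf, an ETS factor of epithelia, was at 6.26, 6.36, 6.61, 6.45 and 6.35 in KO lungs, against 6.90, 6.90, 6.71, 6.94 and 6.74 in controls. It fell by 0.44 ± 0.07 (SE, limma adjusted p = 0.00496), with no overlap between the groups.

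**Figure D3:**
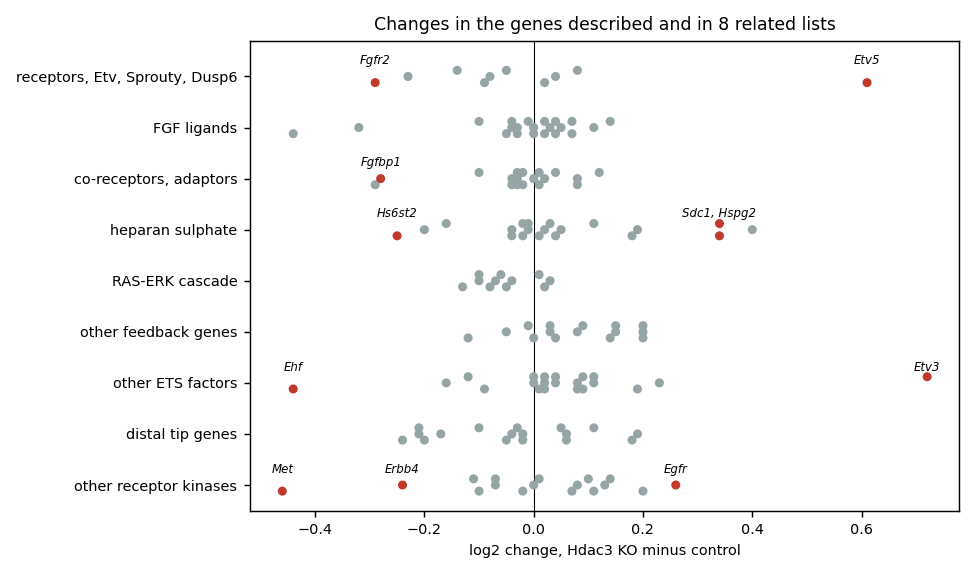
Log2 change, Hdac3 KO minus control (x axis), of every measured gene of the 10 described and of 8 related lists (y axis), 1 point per gene; red points are called by limma (adjusted p under 0.05) and named. Of the 10 genes Etv5 and Fgfr2 are red, and in the lists 4 genes are red to the right of 0 and 5 to the left.

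Markers of cell types of the lung were set beside the 10 genes, as counts called and as the mean over a list in each lung. Over all 17919 genes, 3.12% were called. Of 21 AT2 markers other than Etv5, 1 rose, Lpcat1, an enzyme of surfactant phospholipids (0.34 ± 0.05 SE, limma adjusted p = 0.00132), and 0 fell. The AT2 list mean ran from 11.34 to 11.59 in KO lungs and from 11.47 to 11.59 in controls, and its summed level from 16.08 to 16.29 and from 16.19 to 16.29 on the log2 scale. Of 22 AT1 markers, genes of the flat gas-exchange cells, 2 rose and 4 fell, among them Col4a3 (-0.70, limma adjusted p = 0.000169) and Col4a4 (-0.50, 0.00258), and the list mean ran from 10.44 to 10.72 in KO lungs and from 10.50 to 10.61 in controls. The part of cell numbers in the Etv5 and Fgfr2 changes was not tested.

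Of 17 markers of epithelium in general, 6 rose and 1 fell, and the list mean lay higher in all KO lungs, from 9.63 to 9.79, against 9.31 to 9.45 in controls. The summed level was 14.39 to 14.59 in KO lungs and 13.92 to 14.04 in controls, on the log2 scale. The rises were keratins and claudins, with the smallest p for Krt18 (1.34, limma adjusted p = 1.6e-06) and Krt8 (0.74, 1.75e-05). Cldn4, a claudin, had the largest change of the list (1.95, 0.0052), while Epcam had a change of 0.04 (0.85); both were named after their values were seen. Of 15 club cell markers, 2 rose and 6 fell, with a list mean of 8.95 to 9.27 in KO lungs and 9.28 to 9.49 in controls; by smallest p they were Krt15 (1.75, 3.53e-05) and Aldh1a7 (-0.58, 0.000151). Of 19 ciliated cell markers, 0 rose and 5 fell, with a list mean of 7.85 to 7.95 in KO lungs and 7.93 to 8.05 in controls, Dnah11 (-0.36, 0.000349) and Dnah9 (-0.27, 0.00663) having the smallest p. Their part in the changes of Etv5 and Fgfr2 was not tested.

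For cells outside the epithelium, the counts were as follows. Of 15 fibroblast markers, 1 fell, Ces1d (-0.31, limma adjusted p = 0.00867). Of 9 mesothelial markers, 1 rose, Msln (0.46, 0.0103). Of 14 smooth muscle, 18 endothelial and 16 leukocyte markers 0 were called by limma, and 2, 0 and 4 were at an unadjusted p under 0.05. In the fit blocked by replicate number 1 of each was called, Cnn1 (-0.41, adjusted p = 0.0275), Car4 (0.32, 0.0172) and Laptm5 (-0.27, 0.0227), and so were mesothelial Upk3b (-0.26, 0.0271) and erythroid Slc4a1 (0.22, 0.0461). The smooth muscle mean was nonetheless lower in all KO lungs, at 9.05 to 9.17 against 9.20 to 9.31 in controls. Only 4 of 11 erythroid markers were measured, and the transferrin receptor gene Tfrc, which other cells use too, was the 1 called without the block (0.70, 0.000434).

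**Figure D4:**
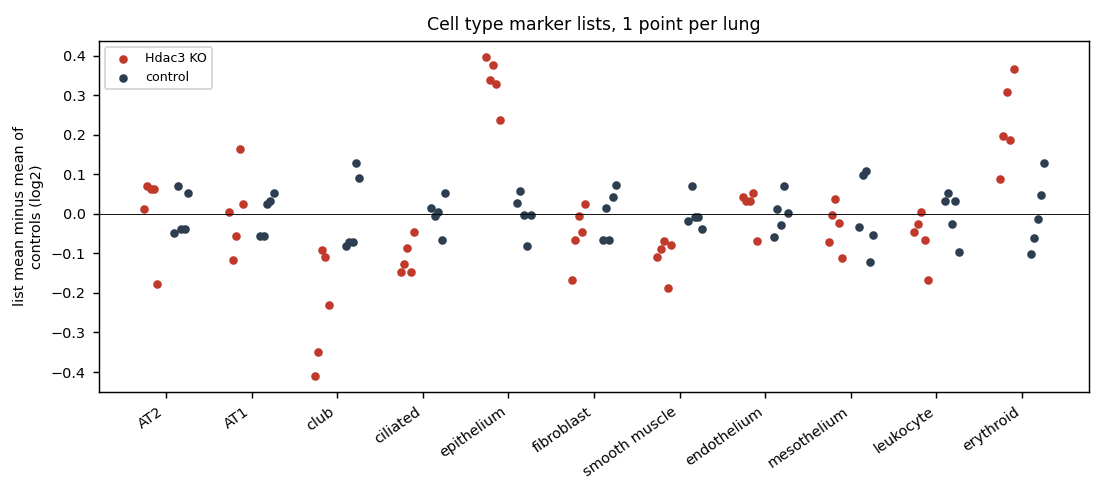
Mean log2 level of each marker list per lung, minus the mean of the control lungs (y axis), for 11 cell type lists (x axis), with Hdac3 KO lungs in red on the left and control lungs dark on the right of each place. The KO points of the epithelium list lie above all controls, those of the club and smooth muscle lists lie below all controls, and those of the AT2 and AT1 lists overlap the controls.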

How the data were processed

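Per the submitters' processing notes, the authors used oligo, RMA and limma, with no versions given; the deposited values are log2 probe set levels after RMA, from 3.526 to 13.611. Neither an annotation build nor a filter on rows was given in the sources used here. Per the labels' protocols, cDNA was primed with poly(T) on 100 ng of RNA and amplified by transcription, so that polyadenylated RNA was read.

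The platform's annotation gave 1 symbol for 18922 of 24888 probe sets; 17919 genes were left with the probe set of highest mean. Groups were compared by limma 3.58.1 in R 4.3.3 (lmFit and eBayes, two-sided, Benjamini-Hochberg over all genes), checked on simulated data. Exact permutation tests took all 252 assignments. Members and lists were chosen with earlier results of these data known. Named from each related list were up to 5 called genes by smallest p, or the 2 of smallest p; from marker lists, up to 2 called. Genes of likest pattern were the 3 with the smallest root mean square difference of centred log2 values. The samples are labelled biological replicates.

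The replicate numbers 1 to 5 recur in both groups. Deviations from the group means of same-numbered lungs correlated at 0.319, 0.154, 0.183, 0.485 and 0.36 across genes. For lungs of different number the median was -0.0829 and the highest value 0.33. The best match had the same number for 7 of 10 lungs. On this ground the numbers were used as a block in an alternative fit and as pairs in the sign flips. The main limma fit and the exact permutation tests took the lungs as unpaired. The pairing is inferred from the data and is not in the labels. Whether true pairs or the split of numbers 1 to 3 from 4 and 5 gave these correlations was not tested. Alternatives were that block, a block of numbers 1 to 3 against 4 and 5, each set alone, each lung left out, a filter or floor on low values, other probe sets, renormalization and another prior.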

Additional observations from a re-analysis of the deposited data

How the results depend on the processing

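Etv5 was higher and Fgfr2 lower under all 20 alternatives, with log2 changes from 0.17 to 0.64 and from -0.32 to -0.25. For most alternatives this direction was fixed beforehand. Where lungs were left out the sign could not turn, as KO and control lungs did not overlap for either gene. With a block, another prior or only genes above the median level, the estimates stay at 0.61 and -0.29 by construction. With the replicate number as a block (replicate block) both calls held (limma adjusted p = 0.000508 and 0.0087), the 8 other genes stayed uncalled, and the genes called over all were 409 higher and 437 lower, against 276 and 283. With numbers 1 to 3 against 4 and 5 as a block 455 and 455 were called, and 10 related-list genes were called lower. With only numbers 1 to 3, 188 of all genes were called lower, 0 of the 10 (Fgfr2 adjusted p = 0.057) and 3 of the lists. With only numbers 4 and 5, a fit of 4 lungs, 1 of all genes was called higher and 1 lower, and 0 of the 10 and 0 of the lists. With the dimmer Etv5 probe set 0 of the 10 were called higher. Among genes above the median level, 1 list gene was called lower; the other 4 lay below that level and were not in that fit. Leaving out each lung gave 189 to 382 genes called higher and 202 to 317 lower, 1 of the 10 higher, 0 to 1 lower, and 2 to 5 list genes higher and 3 to 6 lower. Signs turned for uncalled genes near 0: Spry2 (-0.04 with numbers 1 to 3, and -0.03 to 0.09 leaving out each lung), Spry1 (-0.12 with numbers 4 and 5) and Spry4 (0.03 with numbers 4 and 5). The causes were not tested.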

Other observations

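Other growth factor receptors moved in either direction. Of 17 measured genes of other receptor tyrosine kinases and EGF-family ligands, 1 rose and 2 fell in the Hdac3 KO lungs, with a median log2 change of 0.01. Egfr, the EGF receptor, was at 9.46, 9.47, 9.52, 9.59 and 9.58 in KO lungs 1 to 5, against 9.19, 9.19, 9.22, 9.30 and 9.39 in controls, and rose by 0.26 ± 0.05 (SE, limma adjusted p = 0.0182). Met, the hepatocyte growth factor receptor, was at 8.76, 8.87, 8.77, 8.98 and 8.78 in KO lungs, against 9.15, 9.19, 9.06, 9.54 and 9.53 in controls, and fell by 0.46 ± 0.09 on the log2 scale (SE, limma adjusted p = 0.0195). Erbb4, a receptor for neuregulins, was called lower at low levels (6.34 in KO and 6.58 in control lungs, limma adjusted p = 0.0355, and 0.0562 with the replicate block). KO and control lungs did not overlap for any of these 3 genes.

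The genes whose pattern over the 10 lungs was most like that of Etv5 were Mmp23, a matrix metalloproteinase, Ctsc, which encodes cathepsin C, and Rabgef1, an exchange factor for the Rab5 GTPase. Their root mean square differences from Etv5 were 0.10, 0.10 and 0.111 log2 units, and their own log2 changes were 0.51, 0.68 and 0.48. For Fgfr2 they were Prrg3, Oxct1, an enzyme of ketone body use, and B230208H11Rik, with differences of 0.0414, 0.0468 and 0.0619. Prrg3 and Oxct1 had log2 changes of -0.24 and -0.22 and were not called by limma (adjusted p = 0.0777 and 0.0778), and B230208H11Rik had -0.30 (adjusted p = 0.0434). All these genes were picked for a pattern that takes in the shift between KO and control lungs. Their changes were therefore bound to resemble those of Etv5 or Fgfr2.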
